A study of Mus musculus with 28 samples.

Results

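*Pramel6* and *Pramel7* are a pair of neighbouring genes of the PRAME family, and they are the 2 genes described here out of 37991 in the count tables, of which 20321 were tested. They were selected on their measured change on *Kap1* knockdown in wild-type (WT) mouse embryonic stem (ES) cells, where they stood among the largest falls, and as genes of the ground state of pluripotency. Among genes with at least 500 reads over all libraries, *Pramel7* had the largest fall in WT and *Pramel6* the third, with *C330046G13Rik* between them. The WT knockdown values therefore chose the genes and are given below as a description without a test. The knockdowns in the mutant lines compared other libraries and were tested. The spread in those tests was estimated over all libraries, the WT ones included.

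PRAME family proteins are built of leucine-rich repeats, and some act as substrate receptors that bring a protein to a cullin ubiquitin ligase. *Pramel7* is known from the inner cell mass and from ES cells in the ground state, where its protein works with the cullin CUL2 and lowers UHRF1, the protein that guides the maintenance methyltransferase DNMT1 to newly copied DNA. Both genes have been described as responsive to LIF and its transcription factor STAT3. KAP1, the product of *Trim28*, is the corepressor that KRAB zinc finger proteins bring to transposable elements (TEs), where it sets up H3K9me3 and DNA methylation.

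The genes lie head to head on chromosome 2 (mm9) inside a cluster of olfactory receptor genes. *Pramel7* (ENSMUSG00000025839) covers 87329244 to 87337250 on the minus strand and *Pramel6* (ENSMUSG00000025838) covers 87346722 to 87351029 on the plus strand. Their coding sequences of 1440 and 1458 bases, counted in the longest coding transcript of each gene, were 59.0% identical over the 1418 bases that aligned. The longest exact run shared by these transcripts was 15 bases and 0 windows of 100 bases, the read length, were shared. Elsewhere in mm9 the closest match was 85.4% identical for *Pramel6* and 90.9% for *Pramel7*, and 0 matches of at least 100 bases reached 99% identity over their length. Identical stretches of 100 bases within these matches were not searched for. The transcripts compared held 1781 bases for *Pramel6* and 1861 for *Pramel7*, against 2084 and 2134 bases of counted exon. Reads that fit elsewhere were therefore not fully excluded.

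The promoters are shown because both genes fell together. Each runs from 250 bases before to 50 bases after the start in RefSeq (GRCm38.p6), which places the *Pramel6* window at chr2:87506315-87506614 on the plus strand and the *Pramel7* window at chr2:87492369-87492668 on the minus strand. Capitals mark matches to the motifs searched on either strand.
Pramel6: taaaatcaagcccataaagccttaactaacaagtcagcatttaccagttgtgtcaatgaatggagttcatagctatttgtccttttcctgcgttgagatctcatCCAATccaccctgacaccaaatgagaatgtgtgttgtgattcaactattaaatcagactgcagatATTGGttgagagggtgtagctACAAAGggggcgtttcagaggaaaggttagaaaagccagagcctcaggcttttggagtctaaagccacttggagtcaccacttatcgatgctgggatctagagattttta
Pramel7: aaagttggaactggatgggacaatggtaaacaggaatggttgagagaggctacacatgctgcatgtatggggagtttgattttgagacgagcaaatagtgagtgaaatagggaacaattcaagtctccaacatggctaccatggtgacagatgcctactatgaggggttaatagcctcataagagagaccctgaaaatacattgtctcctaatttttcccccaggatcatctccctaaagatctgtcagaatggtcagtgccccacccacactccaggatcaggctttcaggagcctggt

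Each window occurred once on chromosome 2 of mm9. The *Pramel6* window lay at chr2:87346472-87346771, at the start of the counted gene, whereas the *Pramel7* window lay at chr2:87332526-87332825, inside the counted gene and downstream of its outermost start. They held 3 CpG in *Pramel6* and 1 in *Pramel7* against a median of 7 over 32544 promoter windows, of which 31.0% and 14.0% had as few. The *Pramel6* window held CCAAT on both strands (37.4% of all windows hold it) and ACAAAG, a SOX-type motif (18.7%). The *Pramel7* window held none of the letters searched. Neither window held TTCNNNGAA, the STAT motif (8.33% of all windows), TCAAGGTCA, the ESRRB motif (0.412%), GGGNGTGG, a KLF motif (17.7%), ATGCAAAT, the octamer (1.75%), TATAAA (13.6%) or CACGTG (7.17%).

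RNA-seq was done on J1 ES cells of 129S4/SvJae origin kept in 2i and LIF, 5 days after lentiviral delivery of an empty hairpin vector (shEmpty) or a hairpin against *Kap1* (shKap1). The lines were WT, a triple knockout of *Dnmt1*, *Dnmt3a* and *Dnmt3b* (DNMT TKO) and a triple knockout of *Tet1*, *Tet2* and *Tet3* (TET TKO), each a single line, so that a genotype cannot be told apart from its line. The study obtained the DNMT TKO and TET TKO lines from different groups of researchers. There were 3 libraries per hairpin in WT and DNMT TKO and 2 in TET TKO, 16 in all, with 18108431 to 29373696 reads on genes. All the cells came through puromycin selection, so the controls carried a vector too.

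*Trim28* was lower in every shKap1 library. Its level in CPM (reads per 1000000 reads on genes, with library sizes scaled by TMM) lay between 1627 and 2086 in the 8 shEmpty libraries. They lay between 149 and 190 in WT shKap1, 163 and 168 in TET TKO shKap1 and 327 and 506 in DNMT TKO shKap1. The mean left after knockdown was 9.42% in WT, 9.03% in TET TKO and 22.9% in DNMT TKO, and the fall in DNMT TKO was smaller than that in TET TKO by a log2 of 1.34 (SE 0.23, edgeR adjusted p = 0.00253). The 5 ES cell markers were read in every group, at a summed 3035 to 3481 CPM with shEmpty and 2059 to 2537 CPM with shKap1. The 7 markers of the 2-cell-like state were at a summed 6.45 to 27.5 CPM with shEmpty, and with shKap1 at 215 to 245 CPM in WT, 62.5 to 146 CPM in DNMT TKO and 634 to 652 CPM in TET TKO. The 6 fibroblast feeder markers were at 5.69 to 8.33 CPM with shEmpty and 10.9 to 11.6 CPM with shKap1 in DNMT TKO, at 7.44 to 7.47 and 4.77 to 5.23 CPM in TET TKO, and overlapped in WT (3.04 to 5.07 CPM). The 5 mesoderm markers were lower with shKap1 in every line, at 16.8 to 20.5 against 6.53 to 7.90 CPM in DNMT TKO, 4.92 to 5.43 against 2.78 to 3.44 CPM in TET TKO and 4.56 to 6.39 against 2.25 to 2.88 CPM in WT. The 8 trophoblast markers were lower in DNMT TKO (79.3 to 90.7 against 63.7 to 68.2 CPM) and in TET TKO (131 to 135 against 99.9 to 103 CPM) and overlapped in WT. The 7 markers of primitive endoderm were higher in DNMT TKO (7.46 to 10.1 against 12.3 to 15.9 CPM) and in TET TKO (15.0 to 16.9 against 17.4 to 17.9 CPM) and overlapped in WT, and the 3 neural markers overlapped in DNMT TKO and in WT and were just lower in TET TKO (152 to 156 against 138 to 151 CPM). The part of these shifts in the results below was not tested.

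In WT cells the genes were moderately expressed with shEmpty and close to absent with shKap1. *Pramel6* was at 7.39, 22.3 and 20.9 CPM with shEmpty and at 0.262, 0.390 and 0.213 CPM with shKap1, from 5, 9 and 4 reads. *Pramel7* was at 5.72, 15.0 and 13.7 CPM with shEmpty and at 0.105, 0.217 and 0.160 CPM with shKap1, from 2, 5 and 3 reads. The first shEmpty replicate was low for both genes, and yet the hairpin groups did not overlap. The mean level left was 1.71% for *Pramel6* and 1.40% for *Pramel7*, and the fitted log2 changes were -5.84 (SE 0.59) and -6.11 (SE 0.49), given without a test because they chose the genes. In these bulk libraries, fewer expressing cells and less RNA per cell cannot be told apart.

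**Figure D1:**
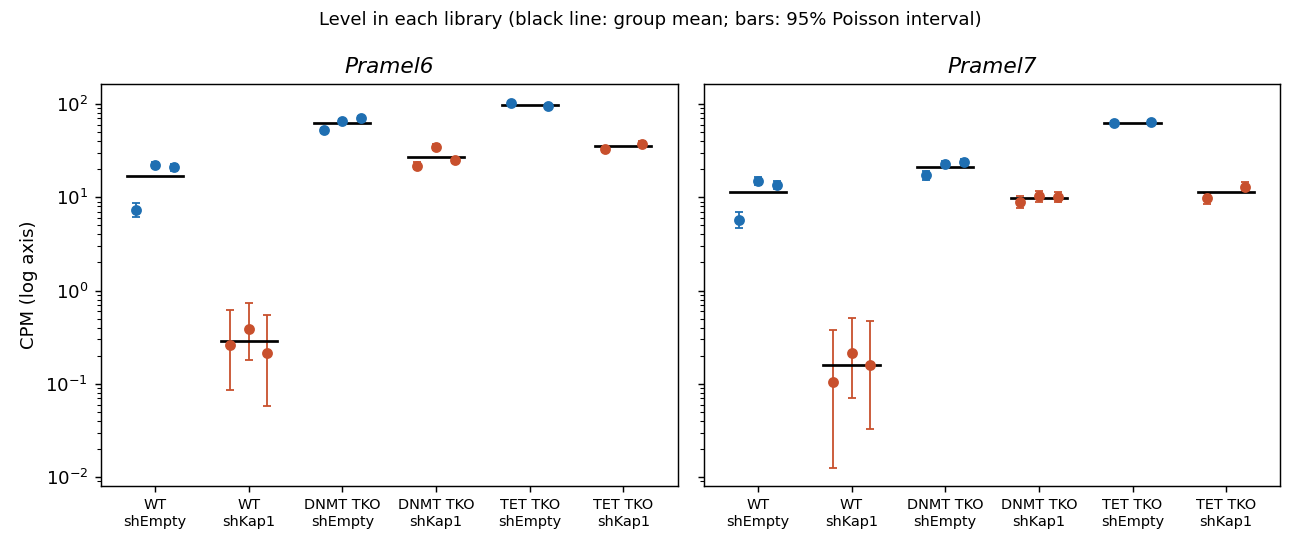
Levels of *Pramel6* (left) and *Pramel7* (right) in each of the 16 RNA-seq libraries, in CPM on a log axis, by genotype and hairpin. Points are libraries, bars their 95% Poisson intervals for counting error only, and black lines group means. All shKap1 libraries lie below the shEmpty libraries of the same genotype, and the WT shKap1 libraries lie below 1 CPM.

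Both mutant lines held more RNA of both genes than WT before knockdown. In DNMT TKO with shEmpty, *Pramel6* was at 52.0, 66.0 and 70.3 CPM and *Pramel7* at 17.1, 22.6 and 24.0 CPM. In TET TKO with shEmpty, *Pramel6* was at 101 and 95.6 CPM and *Pramel7* at 62.0 and 64.1 CPM. All of these libraries lay above the 3 WT shEmpty libraries for the same gene. Against WT the fitted log2 differences were 1.87 (SE 0.30) for *Pramel6* and 0.87 (SE 0.24) for *Pramel7* in DNMT TKO, and 2.52 (SE 0.32) and 2.43 (SE 0.26) in TET TKO. They share the WT libraries that chose the genes and are a description.

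Between the 2 mutant lines, which the choice of genes did not use, the genes differed. *Pramel7* was lower in DNMT TKO than in TET TKO with shEmpty by a log2 of -1.56 (SE 0.25, edgeR adjusted p = 0.000246), whereas 7.51% of all genes were called lower in that comparison. *Pramel6* was at a log2 of -0.65 (SE 0.31, 95% interval by a normal approximation -1.25 to -0.04) in the same comparison. It did not pass the threshold (edgeR adjusted p = 0.122). It passed with an adjusted p of 0.0138 when only the 10 mutant libraries were fitted, and of 0.0155 with limma-voom, with nearly the same difference, and its groups did not overlap. With shKap1, where 16.8% of all genes were called in either direction, the lines could not be separated for this pair. The log2 difference was -0.37 for *Pramel6* (95% interval -1.01 to 0.28, edgeR adjusted p = 0.403) and -0.22 for *Pramel7* (95% interval -0.78 to 0.35, edgeR adjusted p = 0.588). Same-numbered shEmpty libraries deviated together from their group means across DNMT TKO and WT (r of 0.492, 0.295 and 0.32). Across DNMT TKO and TET TKO no such link was seen (r of 0.0164 and -0.0272), though 2 TET TKO libraries give a weak check. Any difference in batch between the 2 mutant lines therefore cannot be told apart from the lines.

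Knockdown lowered both genes in both mutant lines, but left them readily detected. In DNMT TKO, *Pramel6* went to 21.8, 34.7 and 25.2 CPM, a log2 change of -1.21 (SE 0.29, edgeR adjusted p = 0.00699). *Pramel7* went to 8.93, 10.3 and 10.0 CPM, a log2 change of -1.13 (SE 0.25, edgeR adjusted p = 0.00298). Among all genes 2.42% were called lower there, where called means 2-fold or more with an adjusted p below 0.05.

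In TET TKO, *Pramel6* went to 33.3 and 37.1 CPM, a log2 change of -1.49 (SE 0.35, edgeR adjusted p = 0.00752). *Pramel7* went to 9.77 and 12.9 CPM, a log2 change of -2.47 (SE 0.31, edgeR adjusted p = 3.03e-05). There 4.46% of all genes were called lower. The hairpin groups did not overlap for either gene in either line. Without the first TET TKO shKap1 replicate, which leaves 1 library in that group, the *Pramel6* value was -1.40, and such a fit cannot bear a call.

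The share of RNA left after knockdown ranged widely between the genotypes. The WT fall chose the genes, which favours a lower share in WT, so the comparison with WT is a description. *Pramel6* kept 43.4% of its mean level in DNMT TKO and 35.7% in TET TKO, against 1.71% in WT. *Pramel7* kept 45.8% in DNMT TKO and 18.0% in TET TKO, against 1.40% in WT. After knockdown, *Pramel6* was at 27.2 ± 6.69 CPM (SD, n = 3) in DNMT TKO and 35.2 ± 2.67 CPM (SD, n = 2) in TET TKO, above its WT shEmpty mean of 16.9 ± 8.23 CPM (SD, n = 3). *Pramel7* after knockdown was at 9.75 ± 0.710 CPM (SD, n = 3) and 11.4 ± 2.24 CPM (SD, n = 2), within the range of the WT shEmpty libraries.

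**Figure D2:**
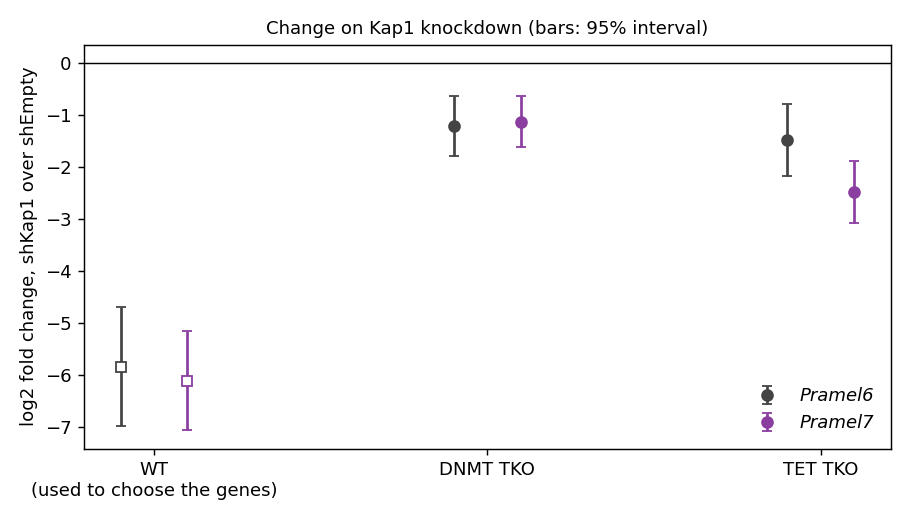
Log2 change of *Pramel6* and *Pramel7* on *Kap1* knockdown (shKap1 over shEmpty) in each genotype, with 95% intervals by a normal approximation. Open squares are the WT values that chose the genes. The changes of -1.21 and -1.13 in DNMT TKO and of -1.49 and -2.47 in TET TKO are smaller in size. The choice itself favours large WT values, here -5.84 and -6.11.

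Ordered by mean level, the groups ran for *Pramel6* from TET TKO shEmpty through DNMT TKO shEmpty, TET TKO shKap1, DNMT TKO shKap1 and WT shEmpty to WT shKap1. Neighbours overlapped between TET TKO shKap1 and DNMT TKO shKap1, and between DNMT TKO shKap1 and WT shEmpty. For *Pramel7* the order was TET TKO shEmpty, DNMT TKO shEmpty, WT shEmpty, TET TKO shKap1, DNMT TKO shKap1 and WT shKap1, and neighbours overlapped between WT shEmpty and TET TKO shKap1, and between TET TKO shKap1 and DNMT TKO shKap1.

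The fall of *Pramel7* was deeper in TET TKO than in DNMT TKO by a log2 of 1.35 (SE 0.39, edgeR adjusted p = 0.0424), where 2.98% of all genes were called in that direction. This call was lost, at adjusted p values from 0.0529 to 0.196, when any 1 of the 10 mutant libraries was left out, although the difference stayed between 1.12 and 1.52. *Trim28* itself fell by more in TET TKO, by nearly the same log2 difference of 1.34, and the part of this unequal knockdown in the *Pramel7* result was not tested. For *Pramel6* the difference was 0.28 (95% interval -0.61 to 1.17, edgeR adjusted p = 0.792).

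Per kb of exon, *Pramel6* was the higher gene in all 16 libraries, but the ratio of the 2 genes was not constant. With shEmpty the ratio of *Pramel6* to *Pramel7* was 1.32, 1.52 and 1.57 in WT and 1.68 and 1.53 in TET TKO, against 3.11, 2.98 and 3.00 in DNMT TKO. On knockdown it was 3.49 and 2.93 in TET TKO and 2.50, 3.47 and 2.57 in DNMT TKO. Both TET TKO shKap1 libraries lay above both TET TKO shEmpty libraries. One of them lay within the range of the DNMT TKO libraries and the other just above its upper end of 3.47. In WT shKap1 the ratios of 2.56, 1.84 and 1.37 came from 2 to 9 reads per gene, and the depth did not allow a comparison.

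**Figure D3:**
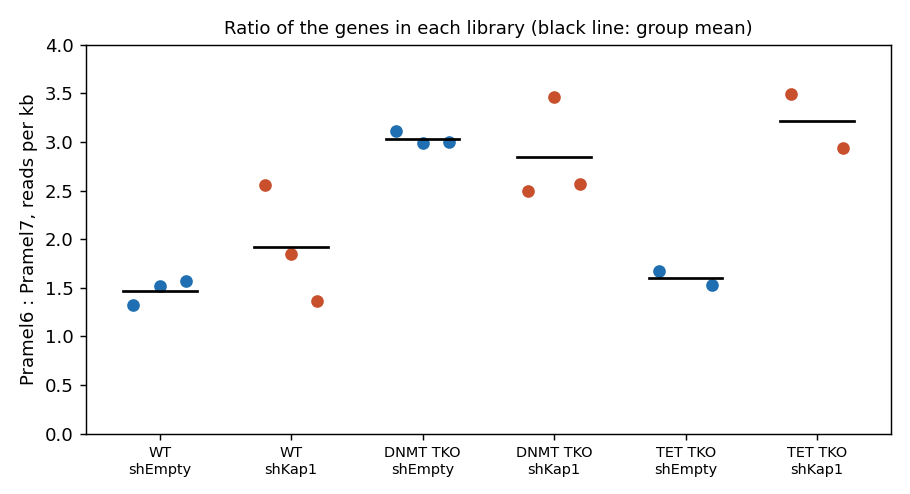
Ratio of *Pramel6* to *Pramel7* reads per kb of exon in each library, by genotype and hairpin, with group means as black lines. WT and TET TKO shEmpty libraries lie between 1.32 and 1.68 and DNMT TKO libraries between 2.50 and 3.47.

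RNA of this locus was not limited to the exons. The deposited repeat table held 230 TE integrants within 50 kb of the gene pair, of which 28 had at least 16 reads and were tested. Of these, 19 had fewer than 16 reads in the shKap1 libraries and passed this filter only with their shEmpty reads, so that the filter itself favours falls, and the counts over the tested integrants are a description. In DNMT TKO 6 were called lower and 0 higher, and in TET TKO 14 were called lower and 0 higher. These counts rested in part on single libraries, with 3 called without DNMT TKO shEmpty replicate 3, and 5 without TET TKO shKap1 replicate 1 or 9 without TET TKO shEmpty replicate 1. Over all tested integrants of the genome, 0.944% were called lower and 15.0% higher in DNMT TKO, and 0.971% lower and 14.7% higher in TET TKO. Of the 25 tested integrants at least 100 bp from a *Pramel* exon, 5 were called lower in DNMT TKO and 11 in TET TKO, at that distance, which is no shorter than a read. Reads of neighbouring integrants may belong to the same RNA, and the counts are not independent.

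The integrant with the most reads was an RLTR18 element with its internal part, a class II endogenous retrovirus (ERVK), at 87352918 to 87353605 on the plus strand, 1889 bp beyond the last *Pramel6* exon. It had 40, 83 and 60 reads in DNMT TKO shEmpty and 19, 21 and 19 in DNMT TKO shKap1, a log2 change of -1.48 (SE 0.29, edgeR adjusted p = 3.67e-06). TET TKO had 95 and 93 reads of it with shEmpty and 29 and 24 with shKap1, a log2 change of -1.40 (SE 0.33, edgeR adjusted p = 0.000248). In WT it had 5, 16 and 12 reads with shEmpty and 0 in each shKap1 library. The libraries high for this element were those high for *Pramel6*.

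Further on, an MTE internal element at 87367745 to 87368344 had 8, 13 and 12 reads in DNMT TKO shEmpty and 1, 2 and 1 in shKap1, a log2 change of -2.82 (SE 0.65, edgeR adjusted p = 0.000206). The TET TKO values of 24 and 7 with shEmpty and 6 and 7 with shKap1 overlapped (log2 -0.81, edgeR adjusted p = 0.423). Within *Pramel7*, a B3 SINE at 87334735 to 87334933, 2071 bp from the nearest exon, had 22 and 33 reads in TET TKO shEmpty and 2 and 4 in shKap1, a log2 change of -2.73 (SE 0.60, edgeR adjusted p = 7.72e-05). This element lay between the RefSeq start of *Pramel7* and the outermost start of the counted gene. An MTB_Mm element of the MaLR group, 39 bp from a *Pramel6* exon, fell in both lines, with log2 changes of -2.21 (SE 0.45, edgeR adjusted p = 1.32e-05) in DNMT TKO and -1.42 (SE 0.44, edgeR adjusted p = 0.0113) in TET TKO, but reads from the exon can reach it.

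Most reads of the integrants inside *Pramel7* and beyond both gene ends were on the strand of the nearer gene. Inside *Pramel7* the minus-strand integrants had 678 reads over the 16 libraries and the plus-strand integrants 1. Beyond the *Pramel7* end there were 46 minus-strand and 10 plus-strand reads in DNMT TKO shEmpty, and 40 and 8 in TET TKO shEmpty. WT shKap1 had 0 and 6 there. Beyond the *Pramel6* end the 30 plus-strand integrants had 1228 reads and the 56 minus-strand integrants 196. In WT shEmpty alone these were 139 and 69 reads, a weaker lean to the plus strand. Summed over the plus-strand integrants there, the level, scaled to the library sizes of the genes, was 1.33 to 2.14 CPM in WT shEmpty and 0 to 0.0866 in WT shKap1. It was 4.67 to 6.48 CPM in DNMT TKO shEmpty against 1.60 to 2.02 in shKap1, and 7.32 to 8.18 in TET TKO shEmpty against 2.55 to 2.62 in shKap1. The order of these groups with shEmpty was that of the *Pramel6* levels.

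**Figure D4:**
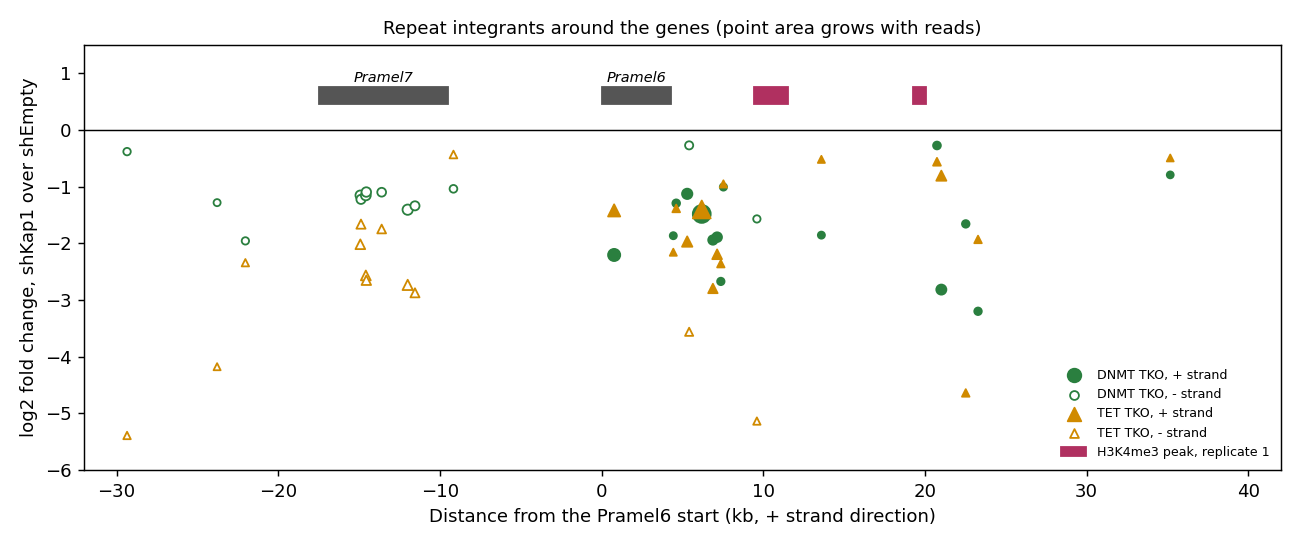
Log2 change on *Kap1* knockdown of the 28 tested TE integrants against their distance in kb from the *Pramel6* start. Circles are DNMT TKO and triangles TET TKO, filled for plus-strand and open for minus-strand integrants, with an area that grows with the reads; grey bars are the genes and red bars the H3K4me3 peaks of replicate 1. Points lie below 0, but 19 of the 28 integrants passed the filter of 16 reads only with their shEmpty reads, which favours falls.

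Few other genes in the neighbourhood were read. Of 77 annotated genes within 500 kb, 58 are named as olfactory receptors, 61 had 0 reads in all 16 libraries and 6 passed the filter of 16 reads. *Olfr153*, an olfactory receptor gene on the plus strand beyond *Pramel6*, was the one among these 6 that was called in a knockdown, and it was called lower in both mutant lines, where 2.42% (DNMT TKO) and 4.46% (TET TKO) of all genes were. It had 25, 50 and 30 reads in DNMT TKO shEmpty and 6, 7 and 8 in shKap1, a log2 change of -2.18 (SE 0.32, edgeR adjusted p = 7.99e-05). Its log2 change in TET TKO was -2.18 (SE 0.43, edgeR adjusted p = 0.00107), and in WT it had 11, 30 and 26 reads with shEmpty and 0 in each shKap1 library. *Gm13736*, an annotated pseudogene that lies between *Pramel6* and *Olfr153*, did not pass the test in either line (DNMT TKO log2 0.23, edgeR adjusted p = 0.0569, and TET TKO log2 0.03, edgeR adjusted p = 0.875). *Gm1826* and *Gm13743*, also annotated pseudogenes, had knockdown log2 values between -0.21 and 0.41, none past the threshold. *Gm13738*, another annotated pseudogene, had 17 reads in all, with 2 and 5 in TET TKO shEmpty and 0 in the TET TKO and WT shKap1 libraries, with log2 values of -0.79 in DNMT TKO (edgeR adjusted p = 0.625) and -4.64 in TET TKO (edgeR adjusted p = 0.0504). It passed the filter only with its shEmpty reads, 2 of its 17 being in shKap1 libraries, which favours a fall. *Nlk-ps1*, the last of the 6, had 0.34 and -1.70 (edgeR adjusted p = 0.583 and 0.319).

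The chromatin lists of the study showed no mark on either gene. The titles of the libraries behind the peaks name no mutant line, so the lists are not read here for DNMT TKO or TET TKO. Peaks of H3K4me3, the mark of active starts, lay at 0 positions within 5 kb of either annotated start in both replicates. Of the 9191 genes at or above the mean *Pramel7* level in WT shEmpty, 94.2% had a peak within 5 kb of the start in both replicates and 4.95% had one in neither. The nearest H3K4me3 peak spanned chr2:87356178-87358276 in replicate 1, which is 9.46 kb from the *Pramel6* start and beyond the end of the gene, and covered the pseudogene *Gm13738*. A second peak in both replicates, 19.2 kb from the start, covered *Gm13736*. Their scores lay at the 45.5 and 23.7 percentile of the replicate 1 list and at 49.5 and 45.8 in replicate 2.

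No region of the other lists came within 50 kb of the pair. The nearest region bound by KAP1, at chr2:87433950-87435390, lay 87.2 kb from the *Pramel6* start, and 67.4% of the tested genes had a KAP1 region as near or nearer. The nearest region of KAP1-dependent H3K9me3, at chr2:87433401-87437799, lay 86.7 kb away, with 43.4% of genes as near. H3K27me3, the Polycomb mark, came no nearer to either start than 1980 kb in replicate 2 and 2360 kb in replicate 1, in each case on the *Pramel7* side.

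5-hydroxymethylcytosine (5hmC) was counted over those lists alone, hence not over the genes themselves, and 1 replicate per hairpin could be assigned from the labels. The study describes 5hmC sequencing in wild-type and KAP1-depleted ES cells, so the values are not read here for the mutant lines. At the first H3K4me3 region shared by both replicates (chr2:87356178-87358176) there were 49 reads in the 5hmC library and 37 in its input with shEmpty, and 50 and 31 with shKap1. Scaled to the reads over all region sets, 5hmC over input changed by a log2 of 0.61 (95% counting interval -0.27 to 1.49). At the region further out (chr2:87366013-87366815) there were 8 and 20 reads with shEmpty and 22 and 25 with shKap1, a log2 change of 1.38 (95% counting interval -0.01 to 2.77). Both intervals included 0. Over the KAP1-dependent H3K9me3 region named above there were 112 reads and 86 in the input with shEmpty, and 166 and 86 with shKap1, a log2 change of 0.90 (95% counting interval 0.35 to 1.45). The 3 KAP1 regions counted, of which those at 87.2 and 88.7 kb lie inside that H3K9me3 region, had changes of 0.57, 0.80 and 0.81, with an interval above 0 for the one at 88.7 kb (0.01 to 1.58). Values above 0 were common in these lists, at 71.4% of the H3K4me3 regions, 76.9% of the KAP1 regions and 80.9% of the KAP1-dependent H3K9me3 regions under the same scaling, with medians of 0.39, 0.64 and 0.66, and there was no replicate for a test. The interval lay above 0 in 12.4%, 26.2% and 41.0% of them.

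Other PRAME family genes did not share one direction. Of the 14 other members annotated, 8 were tested. In DNMT TKO 2 rose and 2 fell at 2-fold, and in TET TKO 4 rose and 1 fell, with medians of -0.15 and 1.17 log2 against 0.02 and -0.01 over all genes. Over all genes 10.1% were called higher and 2.42% lower in DNMT TKO, and 8.05% higher and 4.46% lower in TET TKO. *Pramef6* rose most clearly, from 0.147 ± 0.029 to 10.4 ± 2.76 CPM (SD, n = 3) in DNMT TKO, a log2 change of 6.09 (SE 0.31, edgeR adjusted p = 1.79e-10), and from 0.222 ± 0.164 to 45.9 ± 1.16 CPM (SD, n = 2) in TET TKO, a log2 change of 7.68 (SE 0.33, edgeR adjusted p = 2.34e-11). *Pramel5* rose by 4.26 and 4.17 log2 (edgeR adjusted p = 4.36e-07 and 1.73e-07), from under 0.2 CPM. *Oog4*, an oogenesin of the same family, had 0 reads in both TET TKO shEmpty libraries and 21 and 22 with shKap1 (edgeR adjusted p = 7.3e-05), at least 19.3-fold higher against a floor of 3 reads over the shEmpty group. It passed the filter of 16 reads only with its shKap1 reads, which favours a rise. In DNMT TKO it had 0, 2 and 0 reads with shEmpty and 0, 3 and 2 with shKap1 (edgeR adjusted p = 0.422). *Pramel1* had a log2 change of 0.19 in DNMT TKO (SE 0.25, edgeR adjusted p = 0.612) and rose by 1.52 in TET TKO (SE 0.26, edgeR adjusted p = 0.000239). The part of the 2-cell-like markers, which rose in the same libraries, was not tested.

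*Pramef12*, the other family member with the most reads, was the one tested gene of the family beside the pair that had an adjusted p below 0.05 and a fall in both lines. It went from 81.2 ± 6.45 to 41.7 ± 4.82 CPM (SD, n = 3) in DNMT TKO, a log2 change of -0.96 (SE 0.09, edgeR adjusted p = 2.42e-07), just short of 2-fold. It went from 49.3 ± 2.60 to 15.2 ± 1.06 CPM (SD, n = 2) in TET TKO, a log2 change of -1.70 (SE 0.12, edgeR adjusted p = 8.65e-09). *Pramef8* and *Pramef17* turned direction between the lines. *Pramef17* fell by 1.00 log2 in DNMT TKO (SE 0.13, edgeR adjusted p = 9.59e-06) and had 0.83 in TET TKO (SE 0.16, edgeR adjusted p = 0.000471). *Pramef8* fell by 1.01 log2 in DNMT TKO (SE 0.11, edgeR adjusted p = 1.17e-06), had a log2 change of 0.63 in TET TKO (SE 0.12, edgeR adjusted p = 0.000506), and the difference was -1.64 (SE 0.16, edgeR adjusted p = 3.76e-06). Several of these other members belong to clusters of near-identical copies, so their counts are uncertain.

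**Figure D5:**
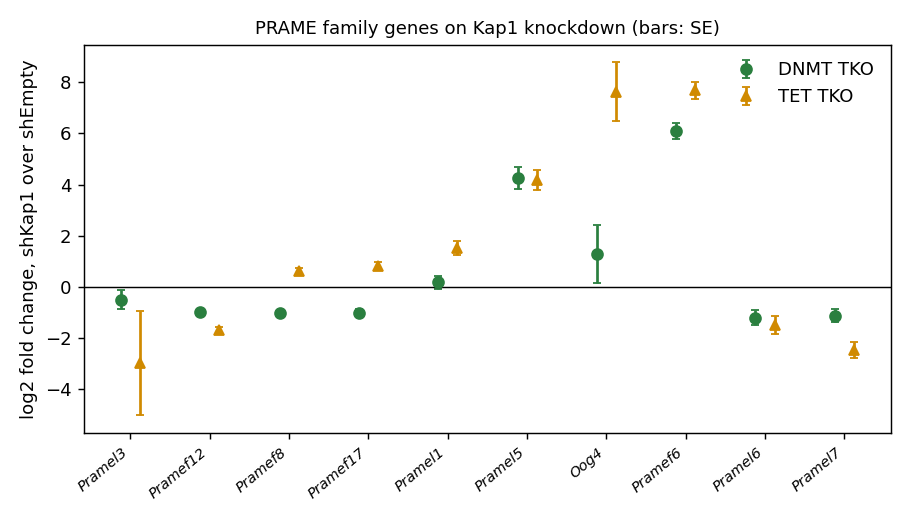
Log2 change on *Kap1* knockdown of the 8 other tested PRAME family genes and of *Pramel6* and *Pramel7*, with SE, in DNMT TKO (circles) and TET TKO (triangles). *Pramef6* and *Pramel5* lie above 4 in both lines, and *Pramef12*, *Pramel6* and *Pramel7* lie below 0 in both.

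Of 14 genes of the LIF pathway (the receptor, its kinases, STAT3 and their inhibitors), 1 was called higher and 0 lower in DNMT TKO, and 0 were called in TET TKO. Over all genes, 10.1% were called higher and 2.42% lower in DNMT TKO, and 8.05% and 4.46% in TET TKO. The one called was *Lif*, the ligand itself, which rose by 1.49 log2 in DNMT TKO (SE 0.09, edgeR adjusted p = 1.08e-09). *Stat3* had log2 changes of -0.17 in DNMT TKO (SE 0.06, edgeR adjusted p = 0.0254) and -0.56 in TET TKO (SE 0.07, edgeR adjusted p = 7.73e-06). *Socs3*, the feedback inhibitor that STAT3 switches on, had -0.09 and -0.01 (edgeR adjusted p = 0.485 and 0.966).

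Of 14 reported STAT3 targets in ES cells, 1 was called lower in DNMT TKO and 3 in TET TKO, where 2.42% and 4.46% of all genes were, and 9 were below 0 with an adjusted p below 0.05 in each line, against 0 above. Over all genes, 15.6% were lower and 19.7% higher at that level in DNMT TKO (35.3% in either direction), and 15.1% lower and 15.3% higher in TET TKO (30.4%). The medians of the list were -0.51 and -0.69 log2, and 5 of its genes, *Gbx2*, *Klf4*, *Klf5*, *Tbx3* and *Tfcp2l1*, are also among the naive genes below. *Pim1*, a survival kinase, fell by 1.07 log2 in DNMT TKO (SE 0.22, edgeR adjusted p = 0.00233) and by 1.65 in TET TKO (SE 0.28, edgeR adjusted p = 0.000654). *Tbx3* fell by 1.37 in TET TKO (SE 0.10, edgeR adjusted p = 8.65e-09). *Smad7*, an inhibitor of TGF-beta signalling, fell by 1.05 in TET TKO (SE 0.08, edgeR adjusted p = 2.71e-08) and had -0.76 in DNMT TKO (SE 0.06, edgeR adjusted p = 8.57e-08). *Tfcp2l1*, listed as *Tcfcp2l1*, had -0.38 and -0.95 (edgeR adjusted p = 0.000239 and 1.16e-07).

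Of 20 naive pluripotency genes tested, 3 were called lower and 1 higher in DNMT TKO, where 2.42% of all genes were called lower and 10.1% higher. In TET TKO 4 were called lower and 1 higher, where 4.46% of all genes were called lower and 8.05% higher. The list had medians of -0.43 and -0.56 log2 against 0.02 and -0.01 over all genes. *Tcl1*, an AKT coactivator, fell by 1.38 log2 in DNMT TKO (SE 0.15, edgeR adjusted p = 5.66e-06) and fell by 1.80 in TET TKO (SE 0.18, edgeR adjusted p = 3.98e-06). *Nr0b1*, the gene of the nuclear receptor DAX1, had log2 changes of -1.24 (SE 0.21, edgeR adjusted p = 0.000459) and -1.74 (SE 0.25, edgeR adjusted p = 0.000155). *Prdm14*, a zinc finger gene of naive and germ cells, had -0.57 in DNMT TKO (SE 0.13, edgeR adjusted p = 0.00284) and fell by 1.79 log2 in TET TKO (SE 0.17, edgeR adjusted p = 9.91e-07). *Klf4* had -0.59 and -0.75 (edgeR adjusted p = 0.00581 and 0.00518), *Esrrb* -0.70 and -0.74 (edgeR adjusted p = 6.6e-08 and 3.83e-07), and *Nanog* -0.21 and -0.30 (edgeR adjusted p = 0.116 and 0.074). *Zfp42* fell by 1.52 log2 in DNMT TKO (SE 0.08, edgeR adjusted p = 1.3e-10) and had -0.48 in TET TKO (SE 0.09, edgeR adjusted p = 0.00069). *Dppa2* was the one called higher, by 1.20 and 1.57 log2.

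Among 5 core pluripotency genes 1 was called lower in DNMT TKO, *Lin28a* (log2 -1.22, SE 0.33, edgeR adjusted p = 0.0151), and 0 in TET TKO. *Pou5f1*, which encodes OCT4, had -0.16 and 0.08 log2 (edgeR adjusted p = 0.0546 and 0.471). *Sox2*, the partner of OCT4 on DNA, had -0.59 in DNMT TKO (SE 0.08, edgeR adjusted p = 2.39e-05) and -0.93 in TET TKO (SE 0.10, edgeR adjusted p = 1.9e-06), short of 2-fold. With no fold threshold, 2 of the 5 were lower in DNMT TKO and 1 in TET TKO, and 0 higher. Over all genes, 15.6% were lower and 19.7% higher at that level in DNMT TKO, and 15.1% lower and 15.3% higher in TET TKO. Of 10 tested genes of the formative and primed state, 2 rose and 2 fell in DNMT TKO, and 3 rose and 0 fell in TET TKO. Beside these small lists, 10.1% of all genes were called higher and 2.42% lower in DNMT TKO, and 8.05% and 4.46% in TET TKO. *Sox3* rose in both, by 1.99 (SE 0.20, edgeR adjusted p = 6.9e-07) and 3.11 log2 (SE 0.26, edgeR adjusted p = 7.47e-08). *Lin28b*, an inhibitor of let-7 maturation, rose by 1.47 (SE 0.08, edgeR adjusted p = 4.68e-10) and 1.81 log2 (SE 0.10, edgeR adjusted p = 7.74e-10). *Etv4*, an ETS factor, fell by 2.16 log2 in DNMT TKO (SE 0.15, edgeR adjusted p = 3.09e-08) and had -0.18 in TET TKO (SE 0.16, edgeR adjusted p = 0.455), and the difference was -1.97 (SE 0.22, edgeR adjusted p = 4.34e-05).

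The list of PRAMEL7 partners and of genes for maintenance methylation held 11 genes, the subunits of its cullin ligase together with *Uhrf1*, *Dnmt1* and others. Of these, 0 were called in either line, where the shares over all genes were 10.1% higher and 2.42% lower in DNMT TKO, and 8.05% higher and 4.46% lower in TET TKO. At an adjusted p below 0.05 with no fold threshold in edgeR, 3 were higher and 4 lower in DNMT TKO, and 3 higher and 2 lower in TET TKO. Over all genes, 19.7% were higher and 15.6% lower at that level in DNMT TKO, and 15.3% higher and 15.1% lower in TET TKO. *Uhrf1*, whose protein is the target named above, was lower at the RNA level on knockdown in both mutant lines, as *Pramel7* was. Its log2 changes were -0.73 in DNMT TKO (SE 0.05, edgeR adjusted p = 7.28e-09) and -0.60 in TET TKO (SE 0.06, edgeR adjusted p = 7.62e-07). With shEmpty, *Pramel7* was lower in DNMT TKO than in TET TKO, whereas *Uhrf1* had a log2 difference of 0.14 (SE 0.06, edgeR adjusted p = 0.0549). The protein was not measured. *Cul2* had 0.31 (SE 0.06, edgeR adjusted p = 0.00086) and 0.38 (SE 0.08, edgeR adjusted p = 0.00119). *Dnmt1* had -0.21 (edgeR adjusted p = 0.00161) and -0.12 (edgeR adjusted p = 0.114), and in DNMT TKO its reads come from a disrupted gene.

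Over the 16 libraries the gene most like *Pramel6* was *Pramel7*, and the reverse, among 13505 genes with at least 500 reads (Pearson r of log2 CPM 0.985). Next for *Pramel6* came *Rspry1* (r 0.975), *2810011L19Rik* (0.973), *Ppp2r2c* (0.971) and *Panx1* (0.968), and for *Pramel7* came *2810011L19Rik* (0.983), *Brca2* (0.98), *Rspry1* (0.976) and *Ppp2r2c* (0.972). These r values are a description, since the libraries share their groups and the WT shKap1 group, where both genes were close to absent, sets much of the spread. The WT fall also chose both genes, which favours a high r between them. The lincRNA gene *2810011L19Rik* showed part of the pattern at a lower level. It was at 3.86 ± 0.783 CPM in WT shEmpty, 0.473 ± 0.047 in WT shKap1 and 12.7 ± 1.24 in TET TKO shEmpty (SD, n = 3, 3 and 2). In DNMT TKO it was at 4.83 ± 0.107 CPM with shEmpty and 4.78 ± 0.452 CPM with shKap1 (SD, n = 3 each). It did not fall with the pair in DNMT TKO, where its log2 change was -0.01 (SE 0.15, edgeR adjusted p = 0.96), but fell in TET TKO by 1.26 (SE 0.18, edgeR adjusted p = 3.22e-05).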

How the data were processed

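Per the labels and the study's methods, the authors sequenced stranded mRNA (single-end, 100 bp), mapped it to mm9 with HISAT2, and deposited raw read counts per gene from featureCounts (1.5.0-p1 in the file headers) and per TE integrant from bedtools. The authors also deposited H3K4me3 and H3K27me3 peaks with their caller's score, and 5hmC read counts over fixed regions. Of the gene IDs 37205 of 37991 were matched to a symbol.

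Genes and integrants with at least 16 reads over the 16 libraries were tested with edgeR 4.0.16 (quasi-likelihood, TMM, 1 fit over the 6 groups, Benjamini-Hochberg), and the script was tested on simulated data. Called means an adjusted p below 0.05 and at least 2-fold. limma-voom (limma 3.58.1), the test of the study, DESeq2 1.42.0, other filters, blocks and leaving out each library were alternatives. Sequences came from RefSeq and the mm9 genome. Changes on the log2 scale carry a prior count. Intervals on counts cover counting error only.

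The labels do not say that same-numbered libraries share a day. Within DNMT TKO and within WT they deviated together from their group means (r of 0.196 to 0.543 in all 3 pairs of DNMT TKO). Across WT and DNMT TKO with shEmpty they also did (r of 0.492, 0.295 and 0.32). In TET TKO, with 2 libraries per group, the r of -0.0259 is a single comparison and cannot show whether they did. The main fit did not use this pairing, which only the alternative fits with a replicate block did. With the block within genotype the SE of the *Pramel6* change in DNMT TKO was 0.095, against 0.29 in the main fit. The methods speak of independent experiments; where these shared a culture, p-values measure technical spread. Both genes and all lists were chosen with earlier results of these data known. Named were the pair and *Trim28*, the 5 genes most correlated with each, read neighbours within 500 kb, the family's 6 most read members, fixed pathway genes, and from each list the 3 largest called changes. *Zfp42*, *Dppa2* and *Sox2*, outside this rule, were named after their values were seen. The 4 libraries of the other 5hmC replicate, whose labels and file names disagree, were left out.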

Additional observations from a re-analysis of the deposited data

Results flagged for a closer look

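The fall of *Pramel7* on *Kap1* knockdown passed the threshold for a difference between DNMT TKO and TET TKO, by a test of the difference itself in edgeR, with a log2 of 1.347 (SE 0.39, adjusted p = 0.0424, range over the alternative fits 2.87e-07 to 0.108). The call was lost in all 10 fits that left out 1 of the mutant libraries (adjusted p from 0.0529 to 0.196), while the log2 difference stayed between 1.12 and 1.52. It held with the replicate block within genotype (adjusted p = 2.87e-07) and with the 10 mutant libraries alone (adjusted p = 0.00129). The labels do not state the pairing behind that block, and it could not be checked in TET TKO. All 3 DNMT TKO shKap1 libraries and both TET TKO shKap1 libraries lay below the shEmpty libraries of their line. *Trim28* fell by less in DNMT TKO, by a log2 of 1.34 (SE 0.23, adjusted p = 0.00253), and its part in the difference was not tested.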

How the results depend on the processing

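The knockdown changes of *Pramel6* and *Pramel7* in DNMT TKO kept their direction and their call under all alternative fits run and with any 1 library left out. *Pramel7* in TET TKO and in the shEmpty comparison of the lines kept both under all alternative fits, and its direction with any 1 library left out. Leaving out a TET TKO library leaves 1 in its group. The spread in such a fit comes from the other groups, so its calls, kept or lost, say little. Fits with a replicate block changed no call of either gene; with the block within genotype the *Pramel6* change in DNMT TKO was -1.22. The *Pramel6* difference between the lines with shEmpty passed the threshold with limma-voom (-0.65) and with only the 10 mutant libraries (-0.65), and the *Pramel7* knockdown difference lost its call without the filter on low counts (1.32, adjusted p = 0.108). Leaving out 1 library each gave -1.55 to -1.40 for *Pramel6* in TET TKO, and for the *Pramel7* difference 1.12 to 1.52. Integrants called near the genes, 6 in DNMT TKO and 14 in TET TKO, numbered 5 to 8 and 11 to 15 under the other fits. With 1 library left out they ranged from 3 to 6 in DNMT TKO, lowest without DNMT TKO shEmpty replicate 3, and from 5 to 11 in TET TKO, lowest without TET TKO shKap1 replicate 1, and 9 without TET TKO shEmpty replicate 1. Peaks of H3K4me3 within 50 kb numbered 0 in both replicates when only scores above the list's median were kept, against 2. With no fold threshold, genes called numbered 7173 for knockdown in DNMT TKO, 6178 in TET TKO, 9277 in WT, 7859 and 8728 between the lines with shEmpty and shKap1, and 2109 for the knockdown difference, against 2534, 2542, 3529, 2909, 3409 and 928. That last count ranged from 560 to 971 with 1 library left out, lowest without either TET TKO shKap1 library. The causes were not tested beyond the smaller number of samples or genes in each. With 2 to 9 reads per gene, the WT shKap1 libraries limit any value there to its counting interval.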
